A study of Mus musculus with 3 samples.

Results

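The 10 mouse microRNAs (miRNAs) described here are mmu-miR-3963, mmu-miR-6366, mmu-miR-5126, mmu-miR-2137, mmu-miR-5110, mmu-miR-8110, mmu-miR-6360, mmu-miR-5121, mmu-miR-5100 and mmu-miR-6769b-5p (written without the prefix from here on), out of 1881 mouse miRNAs on the array. All carry high miRBase-style numbers, which were given late. They were chosen by their brightness or their large differences between these same arrays, so their brightness and their differences are given as a description and support nothing. No numerical threshold was stated for the choice. The question of how such miRNAs are made inside the cell is not measured by an array.

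Exosomes, small vesicles that cells release, were collected from the medium of mesenchymal stem cells (MSCs), adherent stromal cells grown from the bone marrow of wild-type male C57BL/6 mice aged 4 to 6 weeks. All 3 groups used cells of passages 3 to 6, grown with 10% fetal bovine serum, and medium pooled from 10 dishes after 24 h. N-Exo came from MSCs in normoxia, H-Exo from MSCs in hypoxia, and H+G-Exo from MSCs in hypoxia with GW4869, an inhibitor of neutral sphingomyelinase, an enzyme of exosome formation. The oxygen level and the GW4869 dose are not given in the sources used here, nor is whether the serum was cleared of its own vesicles. Each group was 1 array, although the design text speaks of several samples per group, so differences between groups have no replicate check and were not tested. The error after ± is the SD among spots of the same probe within an array for signals, and the standard error (SE) over spots for log2 differences. Both are technical errors.

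Most miRNAs are cut from a hairpin transcript by Drosha and Dicer and loaded into Argonaute, where the seed, bases 2 to 8 counted from the 5′ end, pairs with target mRNAs. Many late entries came from deep sequencing, where a short RNA from a snoRNA, tRNA or other transcript can also be read and annotated. On hybridization arrays, G-rich targets pair strongly with C-rich probes. The sequences are therefore shown before the signals.

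RefSeq (build GRCm38.p6) held 9 of the 10 by name, all but miR-6360. Their mature sequences are printed 5′ to 3′ with the seed in capitals, since the seed decides which mRNAs a miRNA could pair with.
miR-3963: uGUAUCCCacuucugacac
miR-5121: aGCUUGUGaugagacaucucc
miR-5100: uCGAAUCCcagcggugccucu
miR-5110: gGAGGAGGuagagggugguggaauu
miR-6769b-5p: cCUGGUGGguggggaagagc
miR-6366: aGCUAAGGggcccggggagcca
miR-8110: aAGCGUGGauugggggggggg
miR-2137: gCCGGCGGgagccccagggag
miR-5126: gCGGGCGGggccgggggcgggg
The 9 seeds were all different, so the miRNAs do not form a seed family. Only miR-5110 shared its seed with another of the 1679 mature sequences of the table, miR-7081-5p.

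Each miRNA had 2 probes of 15 spots. For these 9, both probes matched the 3′ end of the mature sequence, and the longer probe was the shorter one plus 1 base. The longer probes are printed 5′ to 3′ with that added base in capitals, because the signals below come from these short stretches.
miR-3963: gtgtcagaagtgggaT
miR-5121: ggagatgtctcatcacA
miR-5100: agaggcaccgctgG
miR-5110: aattccaccaccctcT
miR-6769b-5p: gctcttccccaccC
miR-6366: tggctccccggG
miR-8110: ccccccccccA
miR-2137: ctccctggggctC
miR-5126: ccccgcccccG
The shorter probe of miR-8110 is a run of 10 C and reads only the G run at the end of the miRNA. The brighter probe of miR-5126 has 10 bases, the shortest length among the brightest probes of all 1881 miRNAs, and a GC content of 100%. No other mature sequence of the table held the letters that any of these probes reads. Among the other hairpins, that of miR-6403 held the 10 letters read by the shorter miR-5126 probe.

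The 9 mature sequences ran from 47.4% to 100% GC, and 32.0% of all mature sequences had a lower GC than the lowest of them. The lowest GC contents were those of miR-3963 at 47.4% and miR-5121 at 47.6%, inside the quartiles of all mature sequences (45.5% to 60.0%). At the other end stood miR-5126 at 100% and miR-2137 at 85.7%, higher than 99.9% and 99.5% of them. miR-8110 ended in a run of 10 G, and 0.0596% of the 1679 mature sequences, which is this miRNA alone, had a run as long. miR-5126 carried 4 runs of at least 3 G spaced by 1 to 7 bases, a pattern that 2 of the 1679 mature sequences (0.119%) and 1 of these 9 held.

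The miR-5100 hairpin (chr11:60728663-60728726, plus strand, inside the bounds of Mief2) is printed because it holds letters of the T loop and its stem that many tRNAs share, here in capitals.
miR-5100 hairpin: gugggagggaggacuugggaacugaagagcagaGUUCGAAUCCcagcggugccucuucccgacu
Searched on both strands, GUUCGAAUCC occurred in 1 of 1005 RefSeq miRNA hairpins (0.0995%), that of miR-5100, from which these letters were taken. The mature miRNA begins at base 36 of the hairpin, inside the stretch, which runs from base 34 to base 43. The longer probe reads bases 8 to 21 of the mature miRNA, so it covers only the last of the capitals, and the shorter probe covers none. The miR-5100 signals therefore come almost wholly from letters outside the stretch. No tRNA sequences were searched. A match of letters is a description and names no source of the RNA.

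The miR-5121 hairpin (chr7:45126918-45126991, minus strand) lies inside the bounds of Rpl13a, a ribosomal protein gene that hosts small nucleolar RNAs. It overlaps Snord33, a snoRNA of 82 bases, by 28 of its 74 bases, and all 21 bases of the mature miRNA fall within Snord33. Of 1005 hairpins, 4 (0.398%) overlapped a snoRNA gene, and miR-5121 was the only one of these 9.

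The other hairpins were spread over the genome. Those of miR-5126 (chr1:84695839-84695915, plus), miR-2137 (chrX:72992079-72992144, plus), miR-5110 (chr11:85760616-85760702, minus) and miR-6769b (chr8:71631047-71631106, minus) lie within the bounds of the protein-coding genes Dner, Zfp185, Bcas3 and Unc13a. miR-3963 (chr3:151023792-151023862, minus), miR-6366 (chr16:18165089-18165170, minus) and miR-8110 (chr8:89024735-89024831, plus) overlapped no other gene of the table. The nearest protein-coding genes were Adgrl4 for miR-3963, Rtn4r for miR-6366 and Sall1 for miR-8110. Gene bounds do not say whether a hairpin is exonic or intronic, and the array files list all 20 probes as unmapped in their mm9 design.

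Folding gave no single picture for the group. The predicted minimum free energy per base, lower for a more stable hairpin, was −0.629 kcal/mol for miR-5126 and −0.517 kcal/mol for miR-6769b-5p, more stable than 96.7% and 86.9% of 1005 hairpins. It was −0.317 kcal/mol for miR-3963 and −0.321 kcal/mol for miR-5110, more stable than 16.3% and 17.9%. The other 5 lay between the quartiles of all hairpins (−0.465 and −0.342 kcal/mol). In these folds 66.7% of the miR-5121 bases were paired, against a median of 81.0% over 1635 mature sequences and a lower quartile of 73.7%. The share was also under that quartile for miR-5110 (68.0%), miR-6366 and miR-5126 (both 68.2%), and it was 85.0% for miR-6769b-5p. Of the 10, 9 are named without an arm (5p or 3p), against 17.1% of all 1881 miRNAs.

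**Figure D1:**
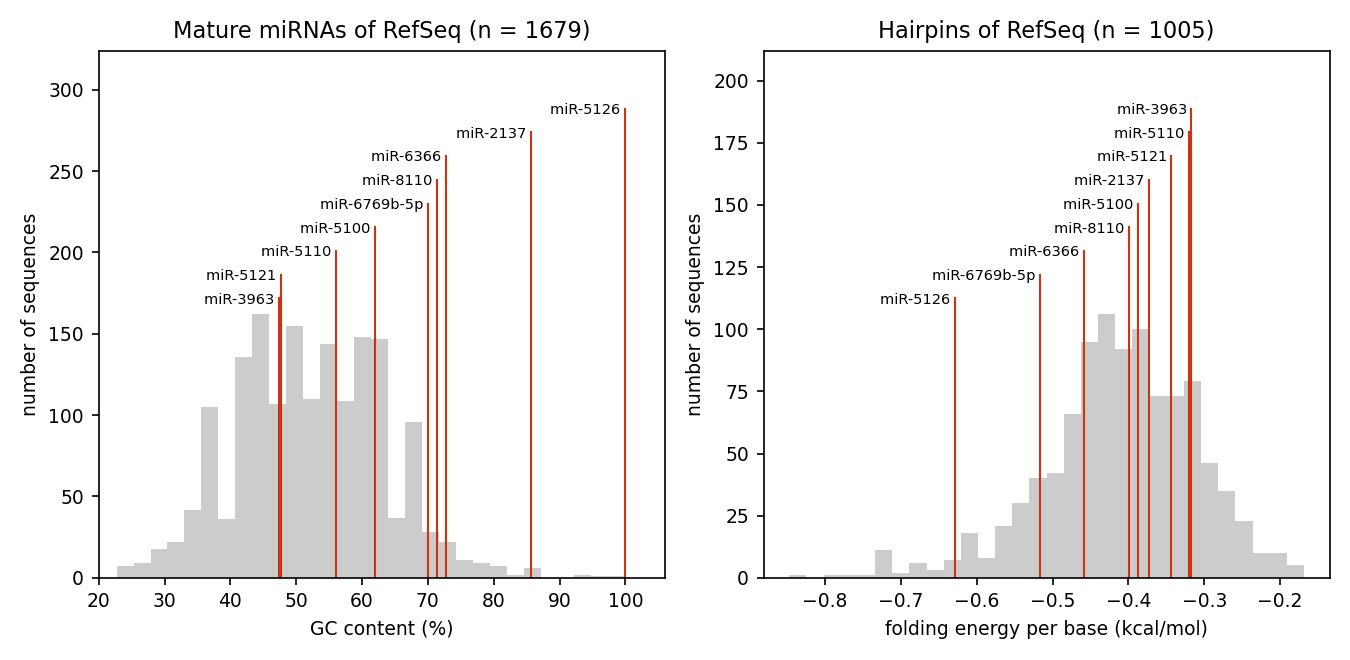
Histograms of the GC content in percent of 1679 mature mouse miRNAs of RefSeq (left) and of the predicted folding energy per base, in kcal/mol, of 1005 hairpins (right), with 9 of the miRNAs as red lines. miR-5126 stands at the upper end of the GC values (100%) and on the more stable side of the hairpins (−0.629 kcal/mol), while miR-3963 (47.4%, −0.317 kcal/mol) lies within the bulk of the GC values and at the less stable side of the hairpins.

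Each array had 56430 miRNA spots, none saturated, and probes for 586 to 685 miRNAs were well above background. To put the arrays on 1 scale, signals were divided by each array's 75th percentile, taken over probes that all 3 arrays detected. The divisors for N-Exo, H-Exo and H+G-Exo were 417.3, 235.0 and 468.9. The lower divisor of H-Exo raises every scaled value of that array, so the differences before scaling are given beside the comparisons. Unscaled values are not free of array effects. The labelling spike-ins, control RNAs, read 2316 and 1744 in N-Exo, 1356 and 1530 in H-Exo, and 1995 and 1627 in H+G-Exo. The hybridization spike-in read 2084, 2100 and 2242 on the same arrays. The part of labelling in the differences was not tested. The arrays do not count vesicles, so fewer vesicles and less of a miRNA per vesicle cannot be told apart. Mesenchymal and fibroblast markers were present, 9 of 9 in N-Exo and H+G-Exo and 8 of 9 in H-Exo, and their summed scaled signal was 312.6, 54.6 and 137.7. Of the markers of other cells, 0 of 2 endothelial, 0 of 2 neuronal and 0 of 4 epithelial miRNAs were detected. The 2 of 6 blood markers, up to 2 of 3 liver and up to 2 of 3 muscle markers detected summed to between 0.101 and 0.292 on any array that had them. The mesenchymal sum was thus highest in N-Exo and lowest in H+G-Exo. miR-5100 shared this order, as did miR-3963, with N-Exo and H-Exo near-level, and miR-8110, miR-2137 and miR-6360 ran against it. miR-21a-5p alone made up most of the sum, at 190.4, 81.0 and 29.7 in N-Exo, H-Exo and H+G-Exo. The part of the mesenchymal sum in the results was not tested.

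All 10 miRNAs were detected on every array, with 100% of the spots of the brighter probe well above background. Of the summed miRNA signal of N-Exo, H-Exo and H+G-Exo they held 26.7%, 31.3% and 27.8%. Among the 10 brightest miRNAs of these arrays were 4, 5 and 6 of them, and among the 50 brightest 7, 8 and 8. The other 931 miRNAs numbered 2000 or above held 21.0%, 25.4% and 32.2% of the signal.

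In N-Exo and H-Exo the best ranked of the 10 were miR-3963, miR-6366, miR-5126 and miR-6769b-5p, while in H+G-Exo miR-8110 ranked above miR-3963 and miR-6366, and miR-2137 above miR-3963. miR-3963 read 165.5 ± 5.89 (N-Exo, 14 spots), 163.2 ± 5.35 (H-Exo, 13 spots) and 44.1 ± 2.81 (H+G-Exo, 15 spots), where its rank went from 3 and 2 to 10. miR-6366 read 144.7 ± 7.49, 152.1 ± 11.3 and 59.8 ± 2.82, with ranks 4, 4 and 7. On the scaled values both were near-level in N-Exo and H-Exo and lower in H+G-Exo. Before scaling, both were lower in H-Exo than under normoxia, miR-3963 1.80-fold (38352 and 69053) and miR-6366 1.69-fold (35747 and 60407). miR-5126 read 99.5 ± 1.93, 155.3 ± 1.78 and 137.2 ± 1.67, and miR-6769b-5p 91.7 ± 1.51, 136.5 ± 1.95 and 128.3 ± 3.49. This pair, ranked 5 and 6 in N-Exo, was at 3 and 5 in H-Exo and at 2 and 3 in H+G-Exo, behind miR-1224-5p, the brightest miRNA of all 3 arrays at 210.3, 424.4 and 422.3. The opposite arm, miR-6769b-3p, read 0.0709, 0.0892 and 0.0575, at ranks 581, 564 and 613.

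miR-8110, miR-5100 and miR-2137 lay between ranks 4 and 44 on every array. miR-8110 read 34.2 ± 0.279 (N-Exo), 70.6 ± 0.735 (H-Exo) and 105.9 ± 3.12 (H+G-Exo). miR-5100 ran the other way, at 43.1 ± 1.71, 29.9 ± 1.19 and 6.69 ± 0.423. miR-2137 read 7.63 ± 0.0902, 12.9 ± 0.393 and 54.2 ± 1.92, and was highest in H+G-Exo. Its rank went from 44 and 26 to 8, and that of miR-5100 from 12 and 16 to 35.

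miR-5110, miR-6360 and miR-5121 lay between ranks 24 and 234. miR-5110 read 2.14 ± 0.0651 (N-Exo), 13.7 ± 0.258 (H-Exo) and 4.93 ± 0.106 (H+G-Exo), and was the only one of the 10 whose H-Exo value stood more than 2-fold above both others. miR-6360 read 0.666 ± 0.0992, 0.970 ± 0.104 and 4.11 ± 0.114, and miR-5121 0.687 ± 0.0188, 0.559 ± 0.0285 and 2.10 ± 0.0490. In N-Exo and H-Exo both lay between ranks 165 and 234, and under H+G-Exo at ranks 55 and 98.

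**Figure D2:**
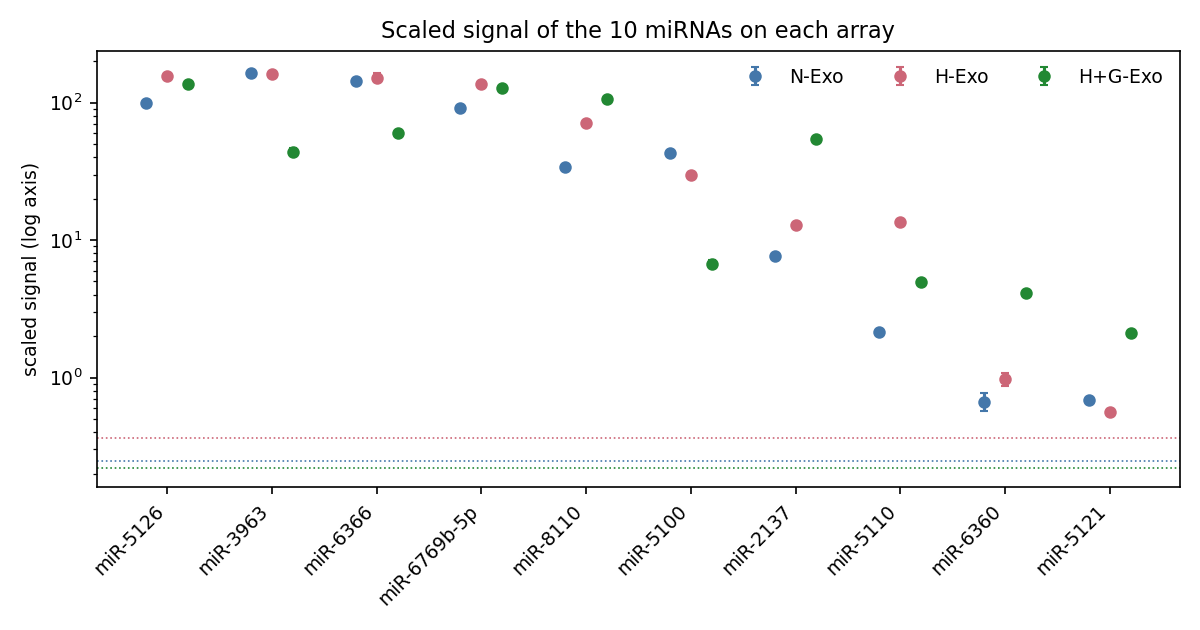
Scaled signal (log axis) of the 10 miRNAs on the N-Exo, H-Exo and H+G-Exo arrays, with the SD over spots as bars and the median of all detected miRNAs of each array as a dotted line in its colour. miR-3963, miR-6366 and miR-5100 are lowest in H+G-Exo, miR-8110, miR-2137, miR-6360 and miR-5121 are highest there, and miR-5110 is highest in H-Exo (13.7).

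To count as higher or lower, a miRNA had to be detected on both arrays and to differ by 2-fold or more, with a difference above 2 standard errors over spots. The 3 comparisons share arrays, so they are not separate evidence. Hypoxia against normoxia asked which exosomal miRNAs differ after hypoxia. miR-5110 was 6.40-fold higher in H-Exo (log2 difference 2.68 ± 0.01, SE over spots), the largest rise among the 582 miRNAs measured on both arrays. miR-8110 was 2.06-fold higher, just inside the rule. In all, 2 of the 10 were higher and 0 lower, where 4.3% of all measured miRNAs were higher and 10.7% lower. Nothing is read from these counts, since the choice used the same differences.

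The size of these differences depended on the scaling. Before scaling, miR-5110 read 891 in N-Exo and 3211 in H-Exo, still 3.60-fold higher, and it passed the rule under all 15 alternative settings. miR-8110 read 14289 and 16599 before scaling, a 1.16-fold difference, and kept its call under 7 of the 15. The median log2 difference of all measured miRNAs was 0.34, and relative to it miR-8110 stood at 0.70, miR-5100 at −0.87 and miR-5121 at −0.64. Before scaling, the log2 differences of miR-5126, miR-2137, miR-6360 and miR-6769b-5p, all above 0 when scaled, were −0.19, −0.07, −0.29 and −0.25. Without scaling 1 member was higher and 2 were lower, where 0.172% of all measured miRNAs were higher and 23.0% lower. The lower were miR-5121 at a log2 difference of −1.13 and miR-5100 at −1.36. The split was also 1 higher and 2 lower with the hybridization spike-in, where 0.172% of all measured miRNAs were higher and 23.4% lower.

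GW4869 under hypoxia against hypoxia alone asked what the inhibitor changed. With GW4869, miR-6360 was 4.23-fold higher (log2 difference 2.08 ± 0.04), miR-2137 4.21-fold (2.07 ± 0.02) and miR-5121 3.76-fold (1.91 ± 0.02). miR-5100 was 4.47-fold lower (−2.16 ± 0.03), miR-3963 3.70-fold (−1.89 ± 0.03), miR-5110 2.77-fold (−1.47 ± 0.01) and miR-6366 2.54-fold (−1.35 ± 0.03). miR-5126, miR-6769b-5p and miR-8110 stayed under 2-fold, at −0.18, −0.09 and 0.58. The sign of the small differences depended on the scaling, as under the 6 other scalings miR-6769b-5p lay between 0.24 and 0.91 and miR-5126 between 0 and 0.82. So 3 of the 10 were higher and 4 lower, against 6.18% and 26.1% of the 566 miRNAs measured.

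The median of all measured miRNAs was at −0.42, so relative to it miR-2137 stood at 2.50, miR-6360 at 2.50 and miR-5121 at 2.33, and miR-5100 at −1.74. Before scaling, miR-2137 read 3024 without and 25421 with GW4869, miR-6360 228 and 1925, and miR-5121 131 and 986, which is 8.41-fold, 8.45-fold and 7.51-fold. All 3 kept their call under the 15 alternatives, as did the lower value of miR-5100, which read 7023 and 3136 before scaling. miR-3963 lost its call without scaling (−0.89) and with the hybridization spike-in, and miR-5110 also with the labelling spike-ins. miR-6366 kept its call under 9 of 15 and stood at −0.35 without scaling. Without scaling 4 members were higher and 1 was lower, where 32.6% of all measured miRNAs were higher and 1.24% lower.

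Hypoxia with GW4869 against normoxia, which differ in both treatments, came next. miR-2137 was 7.10-fold higher in H+G-Exo, miR-6360 6.16-fold, miR-8110 3.09-fold, miR-5121 3.06-fold and miR-5110 2.31-fold. miR-5100 was 6.45-fold lower, miR-3963 3.75-fold and miR-6366 2.42-fold. The count was 5 of 10 higher and 3 lower, where 18.3% of the 606 measured miRNAs were higher and 26.1% lower. All of these calls except that of miR-6366 (kept under 12 of 15) held under the 15 alternatives. miR-5126 and miR-6769b-5p were 1.38-fold and 1.40-fold higher, under the rule.

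**Figure D3:**
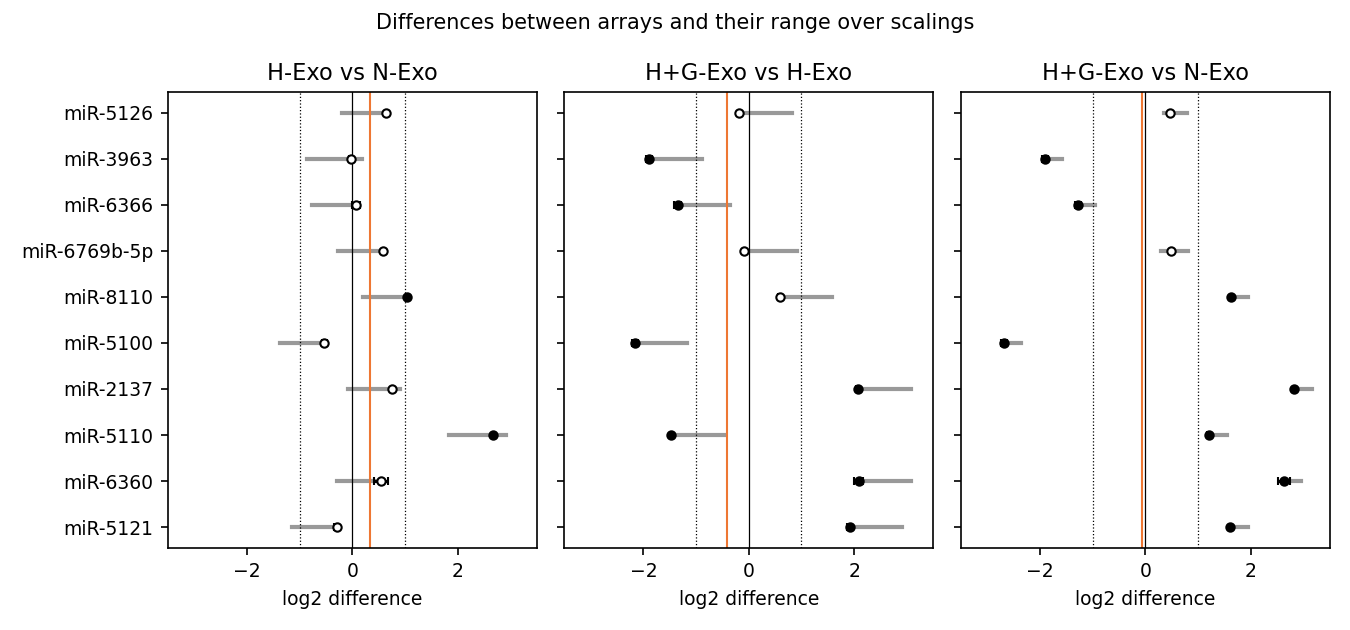
Log2 difference of each miRNA in the 3 comparisons, filled where the 2-fold rule was passed, with 2 standard errors over spots as thin bars. Grey bars span the reported value and the values under the 6 other scalings. The orange line is the median of all measured miRNAs and the dotted lines mark 2-fold. In H+G-Exo against H-Exo, miR-2137, miR-6360 and miR-5121 lie beyond 2-fold higher under every scaling and miR-5100 beyond 2-fold lower. The grey bars of miR-5126 and miR-6769b-5p run from their reported values (−0.18 and −0.09) across 0 to 0.82 and 0.91.

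The other late-numbered miRNAs give the members a background. Of those numbered 2000 or above, 14 of 289 measured were higher and 0 lower in H-Exo against N-Exo, with a median of 0.44, against 0.56 over the 10 members. In H+G-Exo against H-Exo 20 of 284 were higher and 37 lower (median −0.20, members −0.13). In H+G-Exo against N-Exo 73 of 304 were higher and 25 lower (median 0.23, members 0.85). The miRNAs numbered below 2000, let-7 included, had medians of 0.08, −0.74 and −0.72 in the 3 comparisons. The median range of a miRNA over the 3 arrays was 2.09-fold across 562 miRNAs detected on all 3, and 5.32-fold at the 90th percentile, which 4 members (miR-2137, miR-5110, miR-5100 and miR-6360) exceeded. Members were chosen in part for such differences, so nothing is read from their place against the other miRNAs.

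A ratio of miRNAs on the same array does not depend on the scaling factor. The ratio of miR-2137 to miR-5100 in H+G-Exo was 18.8-fold that of H-Exo and 45.8-fold that of N-Exo. This pair joins the highest and the lowest log2 difference of the members in H+G-Exo against N-Exo, so the size of its ratio follows from the pairing. The ratio of miR-6769b-5p to miR-5126 moved by at most 1.06-fold across the arrays, and that of miR-2137 to miR-6360 by at most 1.16-fold. In both pairs the miRNAs were each other's nearest member in pattern, so nothing is read from their steadiness. miR-3963 against miR-6366 shifted by 1.07-fold between H-Exo and N-Exo and by 1.46-fold between H+G-Exo and H-Exo. These ratios use the brighter probe of each miRNA. By the shorter probes, the log2 differences of miR-2137 and miR-6360 with GW4869 under hypoxia were 1.52 and 2.09, against 2.07 and 2.08 by the longer ones, so their closeness holds only for the longer miR-2137 probe. The ratio of miR-5110 to miR-5126 rose 4.10-fold from N-Exo to H-Exo and was 2.45-fold lower again with GW4869. Each course rests on 3 points.

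Probe GC is given here beside the direction in H+G-Exo against N-Exo. Of the 4 whose brighter probe had a GC content of at least 75%, miR-2137 (76.9%) and miR-8110 (90.9%) were higher in H+G-Exo than in N-Exo, miR-6366 (81.8%) was lower, and miR-5126 (100%) stayed under 2-fold. Of the 3 with the lowest GC, miR-5121 (47.1%) and miR-5110 (50%) were higher and miR-3963 (50%) lower. Between them, miR-6360 (66.7%) was higher, miR-5100 (71.4%) lower, and miR-6769b-5p (71.4%) under 2-fold. Probes of at least 75% GC made up 6.06% of all miRNAs and 14.0%, 18.0% and 24.0% of the 50 brightest in N-Exo, H-Exo and H+G-Exo. Those shares count 7, 9 and 12 miRNAs and include the 4 members named above on every array. Since members were chosen partly for brightness, nothing is read from the shares. The median GC of the members' probes was 71.4%, against 53.3% over all miRNAs and 58.8% over those detected on some array. The part of probe composition in these levels was not tested.

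Both probes of each member told the same direction. In the 3 comparisons 0 of 10 had probes of opposite sign, against 22 of 476, 41 of 461 and 34 of 495 miRNAs with several detected probes. Nothing is read from these counts, since the members were chosen for brightness or large differences. For the 9 with printed sequences both probes read the same stretch, so they are not independent measurements. The gap between the log2 differences of the probes had a median of 0.03, 0.05 and 0.05 over the members and of 0.10, 0.13 and 0.13 over all. It was taken from the lowest to the highest probe. Members had 2 probes each and miRNAs on the array up to 4, so these medians are not like for like. The widest gaps among the members were those of miR-2137, whose log2 difference with GW4869 under hypoxia was 1.52 by the shorter probe and 2.07 by the longer. The ratio of its longer to its shorter probe, which needs no scaling, was 4.84, 5.01 and 7.35, so its probes did not keep the same ratio in H+G-Exo.

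The added base mattered most for the probes of miR-5100 and miR-2137. The longer miR-5100 probe was 6.07 to 6.52 times as bright as the shorter one, and the longer miR-3963 probe 2.58 to 2.62 times. For miR-6366 the shorter probe was the brighter, and the ratio of the longer to it was 0.464, 0.471 and 0.539. For miR-5126, miR-8110, miR-6360 and miR-6769b-5p the ratio stayed between 0.876 and 1.09. The longer miR-5110 probe was 1.78 to 1.88 times as bright as the shorter one, and the longer miR-5121 probe 1.74 to 1.94 times. Outside those with a ratio near 1, the level of a member therefore hangs on which probe is read. The differences between arrays hang on it little, apart from miR-2137 and, less so, miR-6366.

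**Figure D4:**
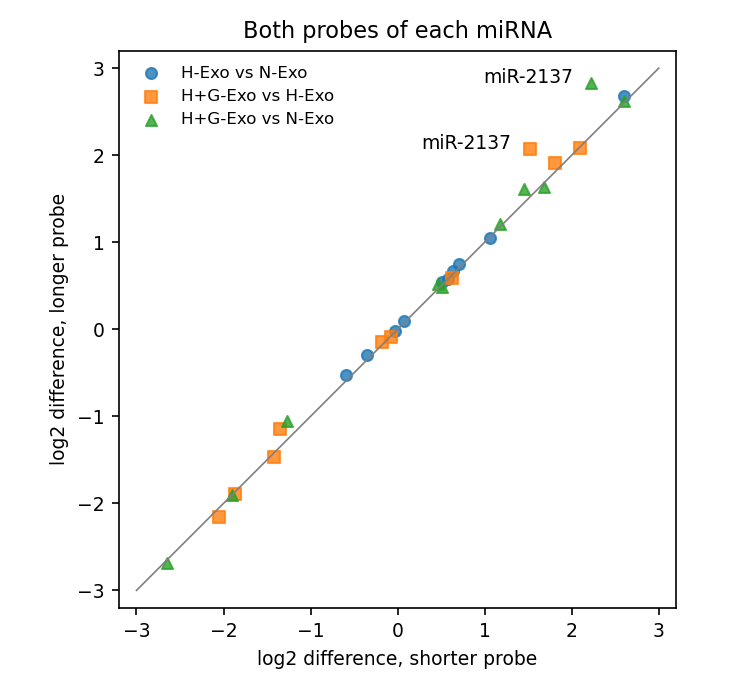
Log2 difference by the longer probe against that by the shorter probe, 1 point for each of the 10 miRNAs in each of the 3 comparisons, with the line of equality. The points lie along the line, and the 2 farthest from it are miR-2137 in the comparisons with H+G-Exo (1.52 and 2.07, and 2.23 and 2.83).

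Among the 552 other miRNAs detected on all 3 arrays, the one whose centred log2 values were nearest was found for each member by Euclidean distance over the 3 arrays. miR-423-3p was nearest to both miR-6360 (distance 0.12) and miR-2137 (0.26), although far dimmer at 0.132, 0.190 and 0.727. miR-125a-5p was nearest to miR-5100 (0.14), at 4.29, 3.40 and 0.713. miR-5110 had no close partner, the nearest being miR-6956-5p at 0.98. For miR-3963, miR-6366, miR-5126, miR-8110, miR-5121 and miR-6769b-5p the nearest were miR-688, miR-7003-5p, miR-878-3p, miR-365-1-5p, miR-1931 and miR-8094, none of which read above 0.335 on any array. Of these, miR-688 read 0.0477 in H+G-Exo, under the signal floor of 0.0653, and miR-7003-5p read 0.0655, at the floor, so the likeness of both rests on signals with no firm level. In N-Exo miR-365-1-5p, miR-1931 and miR-8094 were also not far above the floor, at 0.104, 0.111 and 0.113. Each profile has 3 points and was set against 552 candidates, so nothing is read from a near partner.

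The authors' deposited value table, on a log2 scale and equalised between arrays by a method not given in the sources used here, put the members in a like order. In it miR-5126 was 14.2 under normoxia and 14.8 in both other groups, and miR-2137 9.62, 10.4 and 12.9. The highest value of that table was 17.2 on all 3 arrays, and other values recurred exactly between arrays. The tie of miR-5126 is therefore not read as an equal level. miR-5100 was 12.0, 11.6 and 9.92, and miR-5110 8.35, 10.9 and 9.89. In that table miR-6366 missed 2-fold in both comparisons with H+G-Exo, with log2 differences of −0.55 against H-Exo and −0.83 against N-Exo.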

How the data were processed

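The 3 arrays, 1 per group, carried exosome RNA in 1 colour (Cy3). Per the file headers, the authors read them with Agilent Feature Extraction 10.7.1.1. The deposited spot values are intensity values, background-subtracted by the software and not scaled between arrays, and all 3 arrays share 1 slide and 1 scan. Per the labels' protocols, kits for cRNA and cDNA are named, which are unusual for miRNA arrays, so the labelling is uncertain. The deposited series table was taken as log2, judged by its range. Each probe took the mean over its spots without control spots and outlier-marked spots (1369 to 1568 per array). Detection required over 50% of a probe's spots to stand well above background. Means were divided by the 75th percentile over probes detected on all arrays, and values under 0.0653 were raised to that floor before differences were taken. A miRNA took its brightest probe. The log2 standard errors come from spots. No test across samples was possible with 1 array per group, and the number of arrays limits the precision. The members, lists and rules were chosen with earlier results of these data known. All 10 members were described, with the nearest miRNA in pattern for each. Hairpins were folded with RNAfold 2.7.2, and normexp used limma 3.58.1. Alternatives covered scaling, background, spots, probes, detection and source of values. No column was left unmapped.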

Additional observations from a re-analysis of the deposited data

How the results depend on the processing

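Over 15 alternative settings, the 30 log2 differences of the members gave 450 values. Of these 385 kept both direction and side of the 2-fold rule, 22 kept the direction but fell short of the rule, 7 passed it newly, 36 changed sign or came to 0 in a difference that had not passed it, and 0 reversed a difference that had. For H-Exo against N-Exo the number of members higher, 2 in the reported setting, was 1 with the 75th percentile over all probes, the median, no scaling, the hybridization spike-in, the labelling spike-ins, normexp, all spots required above background and the software's totals. The number lower there, 0, was 2 without scaling and with the hybridization spike-in. For H+G-Exo against H-Exo the number lower, 4, was 1 without scaling and with the hybridization spike-in and 2 with the labelling spike-ins. Over all miRNAs, calls higher and lower in H-Exo against N-Exo, 25 and 62, were 1 and 134 without scaling, 1 and 136 with the hybridization spike-in and 2 and 99 with the labelling spike-ins. In H+G-Exo against H-Exo the 35 and 148 became 185 and 7, 175 and 16, and 135 and 36 under the same settings, 83 and 88 with the median, and 70 and 97 with all probes in the 75th percentile. Under normexp the calls in the 3 comparisons were 3 and 42, 17 and 70, and 58 and 98, the last against 111 and 158. The calls higher were also 50, 81 and 197 in the deposited table, 84 and 167 in the last pair with the software's totals, 169 in H+G-Exo against N-Exo with the labelling spike-ins, 68 in H+G-Exo against H-Exo with quantile normalization, and, in H-Exo against N-Exo, 6 with the 75th percentile over all probes and 15 with the median or with all spots required above background. Those spike-in and unscaled settings use no miRNA signal to set the arrays level. The number of members higher and lower for H+G-Exo against N-Exo, and of members among the 50 brightest, stayed within 1.5 times under every alternative run for them. No paired analysis was possible because each group has 1 array. No replicate could be left out for the same reason. Signals near the floor of 0.0653 limit the dim miRNAs, not these members.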
